A study of Brassica rapa and Brassica oleracea and Brassica napus with 3 samples.

Results

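The coding exons of *B. oleracea* genes were compared by their place in the gene, in 1 BS-seq library of young leaves of the line JZS at an age of 14 d. The library belongs to a study of the allotetraploid *B. napus* and its diploid progenitors, in which DNA methylation was measured beside histone modifications, chromatin accessibility and transcripts. In this assay, cytosines without methylation are converted by bisulfite and sequenced as thymines, and methylated ones stay cytosines. A gene was taken when the first transcript listed for it had 5 to 9 coding exons and when its 5′ end could be told from the data. This gave 15492 genes with 100695 coding exons, out of 58997 *B. oleracea* genes with 293231 coding exons. The library of *B. napus* ZS11, also from young leaves at 14 d, was used for comparison, with genes of its C subgenome (Cn) and its A subgenome (An). *B. oleracea* genes are called Co. Each species has 1 library, so there are no replicates, and no test was made between positions or between (sub)genomes.

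In plants, cytosines are methylated in the CG, CHG and CHH contexts (H is any base but G) by separate enzymes. Many transcribed genes carry methylation in the CG context inside the gene and little at either end, which is known as gene body methylation. Transposons and silenced genes, in contrast, carry methylation in every context along their length. The first coding exon lies near the transcription start site (TSS), and the last one near the transcription termination site (TTS). Which contexts the values cover is not given in the sources used here, so a level is the methylated share of the cytosine calls behind a bin, in contexts that are unknown.

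Each coding exon is described by 12 bins in the direction of transcription, namely 4 in the upstream flank, 4 in the exon and 4 in the downstream flank. The 5′ exon was the end exon whose upstream bins equal those of its transcript. It was found for 96.4% of the 16078 genes with 5 to 9 coding exons. In the 15492 genes kept, it was the first row of the transcript in 7761 and the last row in 7731, and in 100% of them the opposite end exon shared the downstream bins of the transcript. The rule did not use those downstream bins. Since coding exons make up both ends of the annotated gene, this sharing is no independent check of the 5′ end. The other 586 genes were left out because both end exons equalled the transcript upstream, where 533 had no value and 53 had only values of 0. This annotation has no untranslated region rows, so the first coding exon begins where the annotated gene begins.

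The level of an exon was the mean of its 4 bins, taken where at least 2 had a value, and is given in percent. Of all exon bins, 17.8% had no value, and among those with a value 63.4% read 0. The values used here give no read depth per bin. A bin with few reads and a bin without methylation may therefore both read 0, and intervals for counting error could not be computed. The length of an exon was not known either. Errors are the SD of the means of the 9 numbered C chromosomes, which describes the spread inside the library and not between plants.

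First coding exons had the lowest mean methylation level, and internal and last exons lay close together. The mean was 6.52% ± 0.591 (SD of chromosome means) over 12933 first exons. It was 8.37% ± 0.399 for internal exons, with 1 mean per gene in 15015 genes, and 7.87% ± 0.423 over 13430 last exons. In the 11605 genes with a level at all 3 positions, the means were 5.90% ± 0.683 for the first, 6.84% ± 0.428 for internal and 7.13% ± 0.424 for the last exon. The level therefore depended on which genes could be measured. The 2180 genes with internal levels but without a level in the first exon had a mean internal level of 14.5%, against 7.33% in the 12835 genes with both.

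Within the same genes, internal exceeded first exons by 0.905 percentage points ± 0.386 (12835 genes, means of 7.33% and 6.43%). The last exceeded the first exon by 1.22 ± 0.522 (11638 genes, means of 7.16% and 5.94%). Both differences were positive on 9 of 9 chromosomes and larger than the SD of chromosome means. Internal minus last was −0.138 ± 0.190 (13342 genes), positive on 2 of 9 chromosomes and within this SD.

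**Figure D1:**
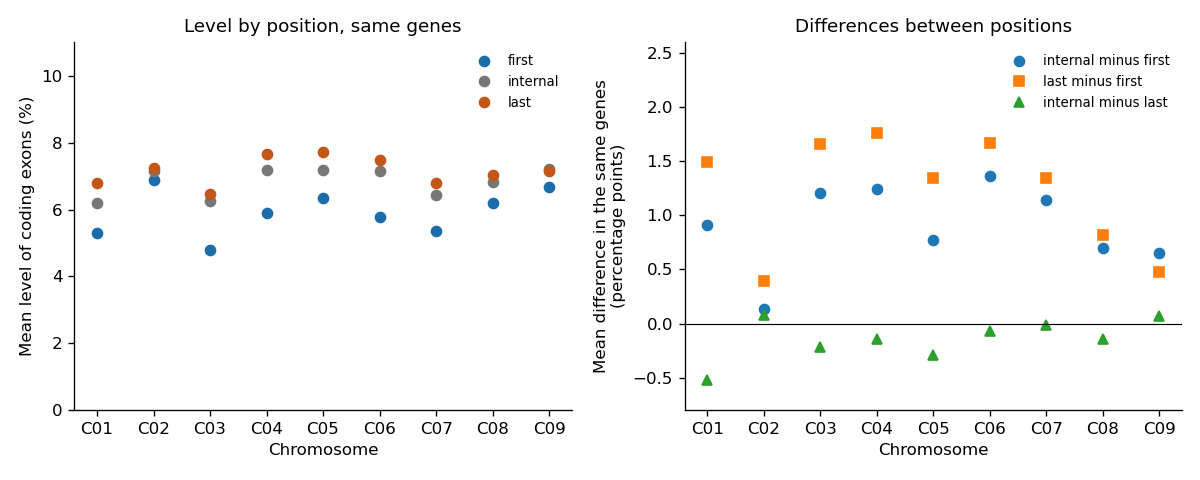
Mean coding exon level (%, left) in genes with a level at all 3 positions, for each numbered *B. oleracea* chromosome (1 point per chromosome and position). The right panel gives the mean difference between positions (percentage points) in all genes with both levels compared, so the panels cover different genes. First exons had the lowest mean on every chromosome, from 4.80% on C03 to 6.89% on C02, and internal minus first ranged from 0.132 on C02 to 1.37 on C06.

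Chromosomes differed in size of the difference but not in its direction. Internal minus first was smallest on C02, at 0.132 points, where the first exon mean of 7.33% was the highest of all chromosomes. It was largest on C06, at 1.37 points. Last minus first ranged from 0.393 on C02 to 1.76 on C04. Over all genes with a level at a position, each position had its lowest mean on C03. It was 5.61% for first, 7.62% for internal and 7.15% for last exons. In the genes with a level at all 3 positions, internal exons were lowest on C01, at 6.19%.

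Positions differed in the share of exons at exactly 0 and in the share at intermediate levels. Of the first exons with a level, 59.8% were at 0, against 49.2% of internal and 43.6% of last exons. Over all Co coding exons, 47.5% were at 0. The share of exons with a level of at least 20% was nearly the same at each position, with 14.1% ± 1.49 of first, 14.0% ± 1.08 of internal and 15.2% ± 1.13 of last exons. Over all Co coding exons it was 13.8%. At a threshold of 10% the shares were 19.1%, 25.3% and 26.5%, and at 30% they were 8.71%, 7.20% and 7.55%. Intermediate levels were less frequent in first exons, since 8.88% of them lay from 5% to under 20%, against 21.0% of internal and 21.7% of last exons. No level was available for 16.5% of first, 14.1% of internal and 13.3% of last exons. Read depth and exon length are unknown, so their part in these shares was not tested. Very high levels of at least 50% were found in 2.40% of first, 1.23% of internal and 1.41% of last exons.

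Among exons above 0, the order depended on the summary. The mean was 16.2% in first, 14.5% in internal and 14.0% in last exons, whereas the median was lowest in first exons, at 8.33%, against 9.93% in internal and 9.07% in last exons. With bins at 0 left out of the levels, internal minus first was −0.240 ± 1.16 (3762 genes) and last minus first was −1.09 ± 1.46 (2344 genes), both within the SD of chromosome means. This setting selects bins by the measured level itself. Without the bins at 0, neither difference from the first exon was larger than this SD.

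**Figure D2:**
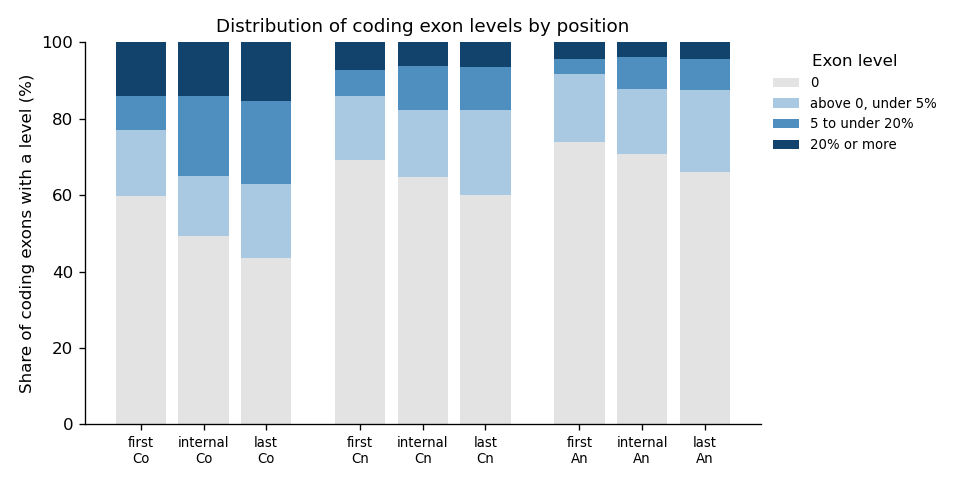
Share of coding exons (%) with a level of 0, above 0 and under 5%, from 5% to under 20%, and 20% or more, by position in genes with 5 to 9 coding exons of *B. oleracea* (Co) and of both *B. napus* subgenomes (Cn, An). In Co, 59.8% of first but 43.6% of last exons were at 0, while 14.1% and 15.2% reached 20%.

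Single genes varied far more than the means. The SD over genes was 14.1 points in first exons, 11.4 in internal and 12.7 in last exons. The median was 0% in first exons, 3.43% for the internal mean of a gene and 1.02% in last exons. An internal mean covers several exons and is therefore less often 0 than a single exon. Compared exon by exon, the median of internal exons was 0.221%. For a like comparison, the middle internal exon of each gene was also used, which was decided on once the values had been seen. It exceeded the first exon by 1.11 points ± 0.420 (11563 genes). It was higher in 4675 of these genes, lower in 2885 and equal in 4003. Against the last exon it was higher in 35.7% and lower in 37.4% of 12036 genes, with a mean difference of −0.0670.

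A difference of at least 5 points in favour of internal over first exons was found in 24.3% of genes (3119 of 12835). The reverse was found in 12.1% (1558 genes). Over all Co genes with 3 or more coding exons, these shares were 23.8% and 12.4%. Genes with 5 to 9 exons were thus close to this background, which contains them. The last exon exceeded the first by at least 5 points in 24.7% of genes, against 24.1% in the background, and lay at least 5 points below it in 12.9%, against 13.2%. Between internal and last exons, the shares were 19.7% higher and 19.3% lower, with 19.4% and 18.9% in the background.

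Methylation levels increased over the first exons of a gene and then levelled off. In genes with 5 coding exons, the mean was 7.79% in exon 1, 7.92% in exon 2, 8.52% in exon 3, 8.76% in exon 4 and 8.81% in exon 5. In genes with 9 coding exons, exons 1 to 9 had means of 5.07%, 4.80%, 5.59%, 6.42%, 6.94%, 6.67%, 6.77%, 6.79% and 6.48%. The highest mean was in exon 5 of genes with 5, 7, 8 or 9 exons and in exon 4 of genes with 6 exons. The lowest was in exon 1, except in genes with 9 exons, where it was in exon 2. Differences between neighbouring exons were mostly within the SD of chromosome means, which was 0.441 to 1.27 points at single exon numbers.

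The second exon was close to the first. Over all members, exon 2 exceeded exon 1 by only 0.0969 points ± 0.404 (5 of 9 chromosomes positive). The step from exon 2 to exon 3 was 0.631 ± 0.345 and that from exon 3 to exon 4 was 0.476 ± 0.250, each positive on 8 of 9 chromosomes. At the 3′ end, the last exon minus the exon before it was −0.196 ± 0.231, within the SD. The low level therefore covered exons 1 and 2, although the rule counts exon 2 as internal.

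**Figure D3:**
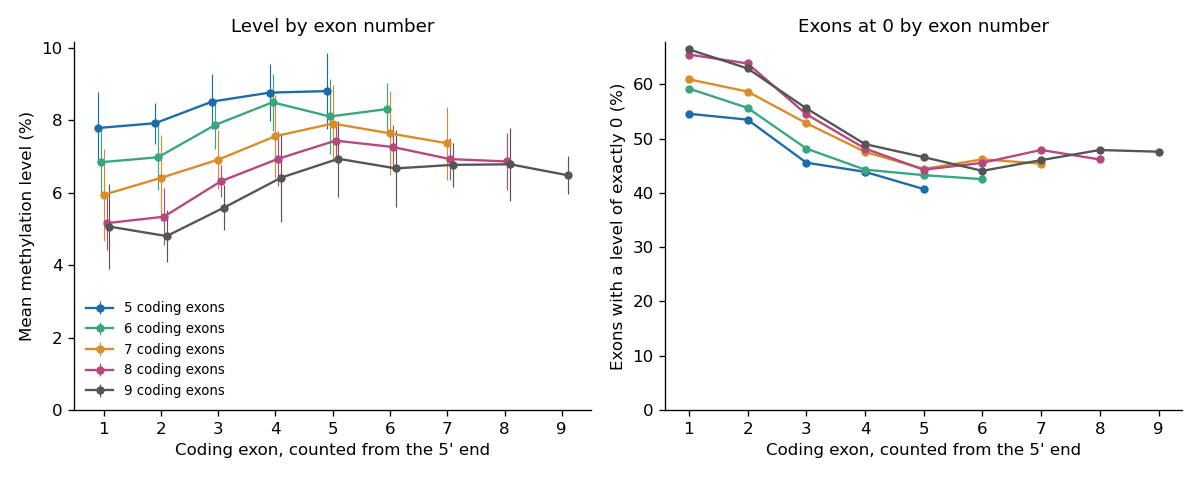
Mean level (%, left, bars are the SD of the 9 chromosome means) and share of exons at exactly 0 (%, right) by coding exon number from the 5′ end, with 1 line for each number of coding exons per *B. oleracea* gene. In genes with 9 coding exons, the share at 0 was 66.4% in exon 1 and 62.9% in exon 2, and it was 44.1% in exon 6.

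First exons had lower levels in genes with more coding exons, and internal minus first was smallest with 5 exons and largest with 8. The first exon mean was 7.79% in the 4920 genes with 5 exons and 5.07% in the 1775 genes with 9 exons. Internal minus first was 0.448 ± 0.769 with 5 exons, 0.831 ± 0.574 with 6, 1.27 ± 0.547 with 7, 1.38 ± 0.802 with 8 and 1.08 ± 0.780 with 9. With 5 exons this difference was within the SD of chromosome means and positive on 6 of 9 chromosomes. With 7, 8 and 9 exons it was positive on 9 of 9.

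In genes on either side of this range, first exons were again lower than internal exons. Just inside and just outside it, internal minus first was 0.459 with 4 exons and 0.448 with 5, and 1.08 with 9 exons and 1.94 with 10. In the 14724 genes with 3 to 4 coding exons it was 0.323 ± 0.237, and in the 6929 genes with 10 or more it was 2.34 ± 0.441. In genes with 10 or more exons the first exon mean was 3.38%, the internal mean 6.19% and the last exon mean 5.55%. Internal exons there also lay above the last exon by 0.354 points, just under the SD of 0.365.

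The bins around and inside the exons differed with position. Upstream of the first exon, the mean level was 13.6% in the bin farthest from the gene and 9.55% in the bin next to it. It was 6.12% in the first bin of the exon and 6.56% in the last bin. In exons with both values, the last bin exceeded the first by 0.326 points ± 0.244, with a positive value on 9 of 9 chromosomes. The last coding exon was the reverse, with 7.89% in the first bin and 7.08% in the last. There the last bin minus the first was −0.865 ± 0.291, negative on 9 of 9 chromosomes. Downstream of the last exon the level was 8.41% in the nearest bin and 11.9% in the farthest. Inside internal exons the 4 bins had means of 7.14% to 7.25%, and the last bin exceeded the first by 0.0211 ± 0.216, within the SD. The median of these bin differences was 0 at each position, so the changes were carried by a part of the exons.

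**Figure D4:**
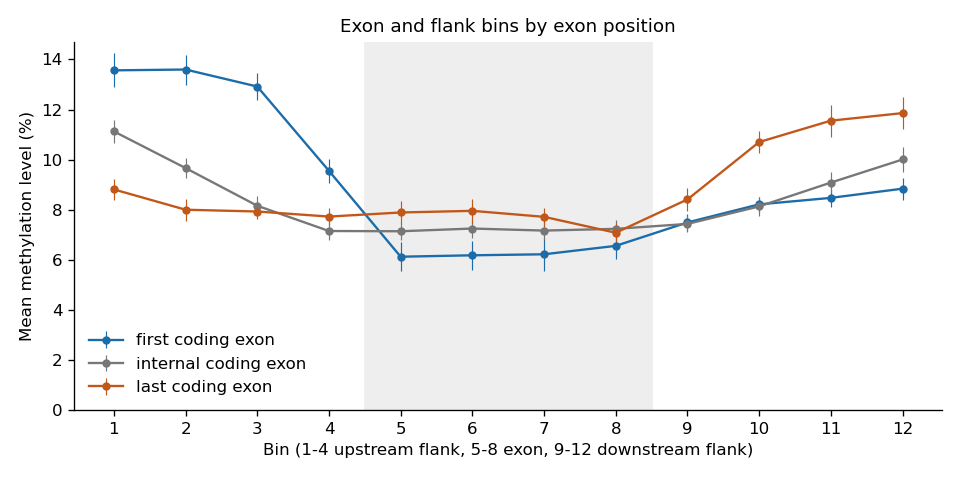
Mean level (%) in the 12 bins of first, internal and last coding exons of *B. oleracea* (bars are the SD of the 9 chromosome means, shading marks the exon). First exons were lowest in their first bin at 6.12%, last exons were lowest in their last bin at 7.08%, and internal exons stayed from 7.14% to 7.25%.

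Internal exons lay slightly above their surroundings in the mean but not in the median. The exon level minus the mean of both adjoining flank bins was 0.797 points ± 0.172 over 59590 internal exons, with a positive value on 9 of 9 chromosomes, and the median was −0.516. In 61.8% of these exons the level was lower than in the adjoining bins, and in 34.0% it was higher. Exon and flank bins are unlike. Of internal exon bins with a value, 62.6% to 64.2% read 0. Of the nearest flank bins, 22.8% upstream and 15.7% downstream did. An exon at 0 lies below any adjoining methylation, so the median and these shares depend on how often each kind of bin reads 0. The same difference was −1.06 ± 0.340 in first exons and 0.467 ± 0.268 in last exons. Flank bins of an internal exon can hold introns and other exons of the same gene, so the bins of neighbouring exons may overlap. The width of the flanks is not known.

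The level of the first exon varied with the upstream flank of the gene, which does not enter the exon levels. In the 5288 genes with an upstream level under 5%, the first exon had a mean of 2.06% ± 0.346, the internal exons 5.07% ± 0.473 and the last exon 5.00% ± 0.386. These genes had an internal minus first of 2.52 points, positive on 9 of 9 chromosomes. In the 6098 genes with an upstream level from 5% to under 20%, it was 0.503, on 8 of 9. In the 3841 genes with an upstream level of at least 20%, the mean was 12.6% ± 1.37 for first and 12.9% ± 1.11 for internal exons, and the median 0.368% and 6.58%. In the genes of this group with both levels, internal minus first was −0.921, negative on 9 of 9 chromosomes. The mean of the difference thus changed sign only in genes with both levels, and the means and medians of the group did not. In those genes 29.6% of first exons were at or above 20%, against 3.44% in genes with an upstream level under 5%.

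Like the first exon, the last exon also varied with the downstream flank. Its mean was 3.95% ± 0.231 in the 6389 genes with a downstream level under 5% and 15.7% ± 1.25 in the 3066 genes with at least 20%. Internal minus last was 0.385 in the former, positive on 8 of 9 chromosomes, and −1.44 in the latter, negative on 9 of 9. First exons had a lower mean than internal exons in genes with a highly methylated downstream flank, by 0.474 points, with a positive difference on 6 of 9 chromosomes. Across genes, which are not independent, Spearman's rho with the upstream level was 0.268 for first (12855 genes), 0.235 for internal and 0.190 for last exons. With the downstream level it was 0.273 for first, 0.289 for internal and 0.298 for last exons. These are descriptions across genes of 1 library.

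**Figure D5:**
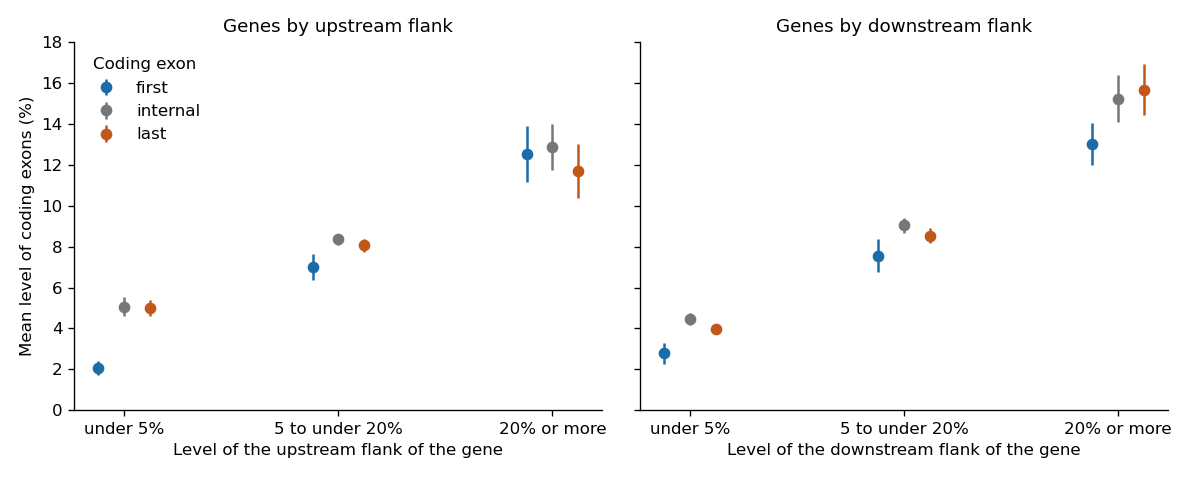
Mean level (%) of first, internal and last coding exons in *B. oleracea* genes grouped by the level of the upstream (left) or downstream (right) flank of the gene (points are means, bars are the SD of the 9 chromosome means). Where the upstream flank was under 5% the first exon stood apart at 2.06%, and where it was at least 20% the first exon reached 12.6%, close to internal exons at 12.9%.

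Genes were also divided by the level of the whole transcript body, which contains these exons together with the introns. Under 5%, the means were 1.14% for first, 2.37% for internal and 2.96% for last exons (8988 genes). In the 2328 genes with at least 20%, they were 28.6%, 28.6% and 26.0%, and last minus first was −2.73. Since the body level includes the exons compared, this grouping is not independent of their levels and is given as a description only. Over all genes with both values, the mean was 8.03% for the transcript body and 8.35% for its coding exons, and body minus exons was −0.321 ± 0.178, negative on 9 of 9 chromosomes.

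The difference also varied along the chromosomes. Genes were divided into 10 groups of similar size by their order on each chromosome. The first exon mean was 4.76% in group 1, 9.28% in group 6 and 3.07% in group 10. Internal exon means followed, with 6.62%, 10.9% and 5.29%. Their difference in the same genes was smallest in group 5, at 0.0694 points, and largest in group 10, at 1.70 points. It was above 1 point in groups 1, 2, 8 and 10 only.

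Exons of the same gene resembled each other, and more so when they were neighbours. Spearman's rho between exon levels was 0.507 for adjacent exons (65802 pairs) and 0.402 for exons 2 apart. It decreased further to 0.298 for exons 4 apart and 0.199 for exons 8 apart (1354 pairs). When an exon had at least 20%, the next one downstream also did in 58.3% of pairs, against 5.94% when it had less. For exons 4 apart, these shares were 47.5% and 7.45%. Pairs of a gene share the library and the local coverage, and pairs far apart come from genes with many exons only. The first exon had a rho of 0.441 with the internal mean and 0.313 with the last exon, and the internal mean had 0.488 with the last exon.

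Most genes with a level in every coding exon had no highly methylated one. Such levels were available for 7984 genes, 51.5% of the members. These genes had lower levels than all members. At or above 20% were 8.52% of their first, 8.02% of internal and 9.51% of last exons. In all members these shares were 14.1%, 14.0% and 15.2%. Of the 7984 genes, 75.7% had no exon at or above 20%, and 8.25% had every exon at 0. A single exon reached 20% in 1016 genes. It was the first in 143, the last in 231 and internal in 642 of them. In these genes first exons made up 15.7% of all exons, and they were 14.1% of the single highly methylated ones, whereas last exons, equally numerous, were 22.7%. Every exon reached 20% in only 107 genes. Where several but not all exons did, they formed 1 unbroken run in 347 genes and were interrupted in 471. The run included the first exon in 128 genes and the last exon in 128, and consisted of internal exons only in 91.

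By position, 78.5% of the 11605 genes with 3 levels had none at or above 20%. All 3 positions reached it in 4.77%. The first exon alone did in 3.80% and the last exon alone in 4.61%. The internal mean alone did in 1.81%, which as a mean of several exons reaches high values less often. Where the first exon alone was high, its median was 33.0%, beside 7.21% for the internal mean and 0.784% for the last exon. Where the last alone was high, its median was 27.2%, beside 0% for the first exon.

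Genes of median level are given as examples of single exons. For each number of exons, the gene with the median of the mean exon level is described, among 3726 genes with a value in every exon bin. BolC02g016890.2J on C02 had exons 1 to 4 at 0% and exon 5 at 9.40%. BolC01g020090.2J on C01 had exons 1 to 4 at 0%, exon 5 at 9.16% and exon 6 at 3.65%. In both genes methylation was found only towards the 3′ end. BolC05g000820.2J on C05 had exons 1 to 3 at 0%, and exons 4 to 7 at 1.53%, 0%, 4.67% and 8.36%. BolC04g018000.2J on C04, with 8 exons, had exons 1 and 2 at 0%, exons 3 to 7 at 2.04%, 2.58%, 4.80%, 11.6% and 1.61%, and exon 8 at 0%. This gene had methylation in internal exons only, although its upstream flank was at 26.0%. BolC07g037540.2J on C07, with 9 exons, had levels above 0 in exon 2 (0.521%), exon 3 (11.1%), exon 5 (5.47%) and exon 9 (7.99%). The first exon was at 0% in each of these 5 genes, as it was in 59.8% of all first exons with a level. Genes with a value in every exon bin were only 24.1% of the members.

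The genes with the largest excess at a position show how sharply exons can differ. They were chosen by these values, so the levels are descriptions. BolC06g022650.2J on C06 had exons 1 to 5 at 4.11%, 57.1%, 49.8%, 26.1% and 18.4%. BolC02g048570.2J on C02 had 0%, 1.12%, 25.5%, 40.2% and 0%. Both had runs of methylated internal exons. In BolC03g028260.2J on C03, exons 1 to 5 were at 0%, 7.93%, 56.7%, 1.89% and 0%. Exon 3 changed within the exon, from 1.49% in the first bin to 25.4%, 100% and 100% in the others.

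High first exons followed by mostly unmethylated ones were found beside upstream flanks of different levels. BolC05g016980.2J on C05 had 69.0% in exon 1 and 0% in exons 2 to 5. Its upstream flank was at 22.8%, and the level in exon 1 fell from 100% in the first bin to 42.9% in the last. BolC07g014110.2J on C07 had 67.6% in exon 1, 4.62% in exon 4 and 0% in its other 4 exons, and an upstream flank at 45.2%. In these 2 genes, methylation spanned the annotated gene start. BolC03g035800.2J on C03 had 63.2% in exon 1, 3.08% in exon 5 and 0% in its other 6 exons, with an upstream flank at 6.34% from the 2 of its 4 bins with a value.

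High last exons were found in genes with methylation in the downstream flank and, to different degrees, in the upstream flank. BolC03g037750.2J on C03 had 71.4% in exon 6, after 26.9% in exon 5, and a downstream flank at 13.9%. BolC04g021210.2J on C04 had exons 1 to 5 at 0% and exon 6 at 57.4%, with a downstream flank at 24.7%. BolC02g019710.2J on C02 had exons 1 to 4 at 0%, followed by 17.7%, 38.4% and 62.7%, with a downstream flank at 28.4%. The upstream flanks of these genes, in the same order, were at 2.25%, 19.4% and 29.8%. In the first and last of these genes the level increased over the last exons, and in BolC04g021210.2J it began in the last exon.

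The rule was applied in the same way to *B. napus*, where it gave 9836 Cn and 8210 An genes. There, 83310 transcripts end with a coding row that directly follows another one, out of 607178 coding rows. These rows were left out, which was decided once the values had been seen. They equalled the row before in all 12 bins in 33.6% of cases and in the exon bins in 81.6%. Without them, the number of coding rows equalled that of exon rows in 100% of the 83106 transcripts without untranslated region rows, and with them in 0.165%. The rule left out 2227 Cn and 2128 An genes in which neither end exon shared the upstream bins, and 2226 and 2127 of these have a 5′ untranslated region row. Species, library and annotation cannot be told apart in these comparisons.

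Levels were lower at each position in *B. napus*. In Cn the means were 3.61% ± 0.365 for first, 4.18% ± 0.321 for internal and 3.63% ± 0.357 for last exons. In An they were 2.16% ± 0.419, 3.12% ± 0.837 and 2.64% ± 0.523. The share of exons at 0 was again highest in first exons. It was 69.2% for first, 64.8% for internal and 60.1% for last exons in Cn, against 61.7% over all Cn coding exons. In An these shares were 73.9%, 70.8% and 66.1%, against 66.7%. The share at or above 20% was 7.33% for first, 6.13% for internal and 6.45% for last exons in Cn, with 5.82% over all Cn coding exons. In An it was 4.29%, 3.89% and 4.38%, with 3.41% over all.

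In Cn, internal minus first was 0.0126 points ± 0.346 (8122 genes, 6 of 9 chromosomes positive), and in An it was 0.297 ± 0.264 (6754 genes, 9 of 10). In Co it was 0.905 ± 0.386. Last minus first was −0.0351 ± 0.421 in Cn and 0.413 ± 0.413 in An, against 1.22 ± 0.522 in Co. In Cn both differences were within the SD of chromosome means. Inside *B. napus* genes with 10 or more coding exons, internal minus first was 0.519 ± 0.432 in Cn and 0.693 ± 0.242 in An, against 2.34 in Co. Internal exons minus their adjoining bins gave −0.192 ± 0.176 in Cn, negative on 9 of 9 chromosomes, against 0.797 in Co.

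Genes paired between both species gave a further comparison. Of the 1998 homoeologous pairs of Co and Cn genes in the part of the study's list used here, 299 fell under the rule in both with the same number of coding exons. Both first exons were nearly unmethylated, with a mean of 0.560% in Co and 0.641% in Cn (254 pairs with levels). Internal exons had 2.40% in Co and 1.05% in Cn (296 pairs), and Cn was lower in 177 and higher in 67 of them. Last exons had 2.91% in Co and 1.11% in Cn (262 pairs), with Cn lower in 98 and higher in 42. The excess of internal over first exons was 1.87 points in Co and 0.456 in Cn in the 252 pairs with both. The levels of these pairs were lower than those of all members. The pairs come from part of the list only and were given no test.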

How the data were processed

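The analysis used 1 BS-seq library each of JZS (*B. oleracea*) and ZS11 (*B. napus*). The methods describe DNA extraction and bisulfite treatment, whereas the protocol in the labels describes formaldehyde fixation for *B. oleracea* and RNA extraction for *B. napus*. The authors filtered reads with Fastp, mapped them with BatMeth2 and deposited methylated fractions (0 to 1) for 12 bins of every annotated feature. Neither coverage nor cytosine context stands in these files, and a normalization across libraries is not mentioned. Mapping is stated to have used the genome of ZS11, but the rows carry identifiers of each species' own annotation. Fractions were converted to percent. Of the coding rows, 163 in *B. oleracea* belong to transcripts with no row of their own and were not used. Python 3.11.15 was used with pandas 2.3.3, numpy 2.4.6, scipy 1.17.1 and matplotlib 3.10.9. On simulated data, the 5′ exon was recovered in 100% of 15492 genes, and position means within 0.0477 percentage points. There, the upstream bins shared by the first exon and its transcript always had values, and levels were set without regard to missing bins. The simulation therefore checked the code only, not genes whose 5′ end cannot be told or levels that vary with missing bins. Alternatives covered the median, missing bins, bins at 0, gene sets, exon bins, weights and thresholds. A coverage minimum could not be varied. The members, lists and rules were chosen with earlier results of these data known. Named genes were the median gene of each exon number and the 3 genes with the largest excess at each position, among genes on numbered chromosomes with a value in every exon bin. The *B. rapa* library was not analysed here.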

Additional observations from a re-analysis of the deposited data

How the results depend on the processing

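Libraries could not be paired or compared with replicates, because each species has 1 library. Depth, exon length and cytosine context are unknown and limit every value of a single exon. Of 114 values under 15 alternatives, 61 moved by less than the SD of chromosome means. The alternative that required the opposite end exon to share the downstream bins kept all 15492 members. Its values therefore equalled the main ones by construction, and they are counted among the 61. Differences larger than this SD changed sign in 3 cases, and internal minus last, which was within it, did so under 2 alternatives. The middle internal exon and the genes with a level at all 3 positions were chosen after the data were examined. Internal minus first and last minus first stayed positive except as given here. Except where a change follows from how the alternative was built, the cause was not tested.

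With bins at 0 left out, which raises levels by construction, the means were 20.1% for first, 17.0% for internal and 17.5% for last exons. Internal minus first was then −0.240 ± 1.16, last minus first −1.09 ± 1.46 and internal minus last 0.629, the shares at or above 20% were 43.6%, 38.8% and 35.1%, and the rise within the first exon was −0.628 ± 1.34. With medians, levels were 0% for first, 3.43% for internal and 1.02% for last exons, internal minus last was 0.247, and last minus first was 0, as was the rise within first (0) and last (0) exons.

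With bins without a value set to 0, means were 4.99%, 6.11% and 6.37%, and the shares 10.7%, 10.7% and 11.7%. With a value in every exon bin, the first exon mean was 5.47%, the last 7.01%, and the shares 11.9%, 12.1% and 13.03%. Among genes with a transcript body level under 20%, a limit that acts on the exons themselves, means were 3.39%, 4.80% and 5.10%, the shares 6.37%, 6.22% and 7.51%, and internal minus last was −0.502. Among genes with a level in every coding exon, means were 4.20%, 5.33% and 5.81%, the shares 8.52%, 8.02% and 9.51%, and internal minus last was −0.486. In genes with a level at all 3 positions, means were 5.90%, 6.84% and 7.13%. The internal mean was 7.35% when every internal exon counted once and 7.78% for the middle internal exon. The shares depend on the threshold by construction, with 19.1%, 25.3% and 26.5% at 10%, and 8.71%, 7.20% and 7.55% at 30%. At 10% the first exon therefore had a lower share than the other positions, and at 30% a higher one.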

Other observations

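On unanchored scaffolds, 62 members were found. Their first exons had a mean level of 16.2% over 18 genes with a value, their internal exons 12.1% over 31 and their last exons 13.2% over 14. These first exons were higher than on each numbered chromosome, where the highest mean was 7.33%. Internal minus first was −2.11 points, opposite in sign to the numbered chromosomes, in the genes with both values.

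The 586 genes with 5 to 9 coding exons whose 5′ end could not be told were largely without values. Of their 1172 end exons, 90.5% had no level, and the others had a mean of 1.78%. Of their 2460 internal exons, 92.2% had no level, and the others had a mean of 0.0775%.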
